A study of Mus musculus with 4 samples.

Results

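The genes described here are 10 components of the lysosomal protein-degrading system, namely the cysteine cathepsins Ctsb, Ctsc, Ctsh, Ctsk, Ctsl and Ctsz, the aspartic cathepsin Ctsd, the asparaginyl endopeptidase Lgmn (legumain), the cystatin Cst3 and the lysosomal membrane protein Lamp1. They were found on the arrays by gene symbol and are 10 of 12394 genes named on the arrays. Together they had 15 probe sets, 4 for Ctsb, 3 for Ctsz and 1 for each of the other 8 genes. All mice were nulliparous C57BL/6 females, either Sca-1 knockouts or age-matched wild-type littermates, and Sca-1 is a surface antigen by which many stem and progenitor cells are sorted. The 4 groups were mammary tumors of Sca-1 knockout (KO) mice, mammary tumors of wild-type (WT) mice, mammary glands of KO mice and mammary glands of WT mice. To induce tumors, mice received 15 mg of the depot progestin MP under the skin and then 1 mg of the carcinogen DMBA by gavage in each of 4 weekly doses. The glands came from mice aged 6 weeks. The labels' protocol text gives the MP and DMBA treatment for every group, but only the tumor groups carry it as a characteristic, and the labels give no age for the tumor mice. RNA of 5 mice was pooled for each group and hybridised to 1 array, so no replicate error could be had, no test was possible, and every difference below is one between 2 arrays.

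Lysosomes degrade proteins with a set of acid proteases made as inactive precursors. Most cathepsins are papain-like cysteine proteases, and legumain cleaves several of their precursors into the mature chains. Cystatins are small inhibitors that hold cysteine proteases in check once they leave the lysosome. Macrophages are rich in these proteases, and epithelial cells and fibroblasts make them too. In whole tissue, fewer cells of a type and less RNA per cell cannot be told apart.

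Signals were linear intensities scaled by the authors to a common trimmed mean, and median signals of the 4 arrays lay between 151 and 199. Differences are given on the log2(signal + 27.3) scale, where a difference of 1 is 2-fold, and a gene with several probe sets stood for its brightest one unless stated. A gene entered the background counts where its highest signal reached 168, the median of all values, which left 8287 genes. All 15 probe sets of the 10 genes lay above that floor on all 4 arrays, with signals between 255 and 12985. As a gauge of measurement error, each log2 difference was compared between the 2 brightest probe sets of 2766 genes. The resulting standard deviation per probe set is called the probe set spread below. It was 0.26 for KO against WT gland, 0.23 for KO against WT tumor, 0.64 for WT tumor against WT gland and 0.57 for KO tumor against KO gland, and it does not cover variation between mice or pools. The 3' to 5' signal ratio of the beta-actin control probe sets, a sign of RNA integrity, was 1.29 in the KO tumor, 1.23 in the WT tumor, 1.61 in the KO gland and 2.35 in the WT gland. Of 10 epithelial markers, 10 reached the floor in each tumor and 9 in each gland, and all 8 adipocyte markers with a probe set reached it in both glands and 4 in each tumor. Of 11 skeletal muscle markers, 2 reached the floor in the KO tumor, 1 in the WT tumor and all 11 in each gland. The Sca-1 gene itself was not analysed here, so the knockout was not checked on these arrays.

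Among the cysteine cathepsins, Ctsc, Ctsh and Ctsz had high signals in tumors. Ctsc, the dipeptidyl peptidase that activates granule proteases of immune cells, had signals of 4312 in the KO tumor, 4881 in the WT tumor, 3077 in the KO gland and 2188 in the WT gland. Ctsh, an aminopeptidase, had 3698 in the KO tumor, 4103 in the WT tumor, 2212 in the KO gland and 1747 in the WT gland. Both genes were higher in both tumors than in either gland, and in both the WT gland was lowest. Ctsz, a carboxypeptidase, had 5806 in the KO tumor, 6704 in the WT tumor, 2859 in the KO gland and 2774 in the WT gland by its brightest probe set. Its other 2 probe sets also placed both tumors above both glands, with signals of 2601 and 2283 in the KO tumor, 2443 and 2591 in the WT tumor, 1376 and 1539 in the KO gland and 1276 and 1298 in the WT gland.

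Ctsl and Ctsb, endopeptidases found in most cell types, were closer to level across the arrays. Ctsl had signals of 5052 in the KO tumor, 5856 in the WT tumor, 4309 in the KO gland and 4597 in the WT gland, a span of 0.44 on the log2 scale. Ctsb had 5122 in the KO tumor, 5831 in the WT tumor, 7179 in the KO gland and 7285 in the WT gland, a span of 0.51. For Ctsb the glands were thus higher than the tumors, the opposite order to Ctsc, Ctsh and Ctsz. The probe sets of Ctsb disagreed on the size of this gap. A bright one had signals of 2092 in the KO tumor, 3248 in the WT tumor, 6747 in the KO gland and 6107 in the WT gland, a span of 1.68. The dimmest had 359 in the KO tumor, 410 in the WT tumor, 518 in the KO gland and 461 in the WT gland. The remaining one had 707 in the KO tumor, 1057 in the WT tumor, 1022 in the KO gland and 889 in the WT gland, so that it alone placed the WT tumor above both glands. All 4 probe sets had their lowest signal in the KO tumor.

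Ctsk, the collagen-degrading cathepsin best known from osteoclasts, had the widest span of the 10 genes by brightest probe sets, 1.62. Its signals were 255 in the KO tumor, 455 in the WT tumor, 838 in the KO gland and 779 in the WT gland. Both tumors lay below both glands, and the KO tumor was lowest.

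Ctsd, the main aspartic protease of lysosomes, had the narrowest span, 0.22, with signals of 4977 in the KO tumor, 5145 in the WT tumor, 5791 in the KO gland and 5761 in the WT gland. Lamp1, a heavily glycosylated protein of the lysosomal membrane, spanned 0.38, with 4832 in the KO tumor, 5611 in the WT tumor, 5673 in the KO gland and 6278 in the WT gland. Neither of these genes had a gap between neighbours in the order of levels that exceeded the probe set spread.

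Lgmn had signals of 1298 in the KO tumor, 2393 in the WT tumor, 1473 in the KO gland and 965 in the WT gland. The WT tumor stood above the other 3 arrays, and the KO tumor lay below the KO gland. Cst3, a secreted inhibitor of papain-like proteases, had 10638 in the KO tumor, 12985 in the WT tumor, 5511 in the KO gland and 5719 in the WT gland. Over the 10 genes there were 30 gaps between neighbours in the order of levels, and 9 exceeded the probe set spread for their pair of arrays. Those 9 included the gap between tumors and glands for Ctsh, Ctsz, Cst3 and Ctsk, the gap between KO and WT gland for Ctsc and Ctsh, the gap between KO and WT tumor for Ctsk and Cst3, and the gap between the WT tumor and the KO gland for Lgmn. For Ctsb, Ctsd, Ctsl and Lamp1 no neighbours differed by more than that spread. Such gaps were not counted over all genes, so the 9 of 30 has no share to be set against. The spread is 1 standard deviation and many genes pass it. Between KO and WT tumor, 23.5% of all genes did so upward and 20.7% downward.

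**Figure D1:**
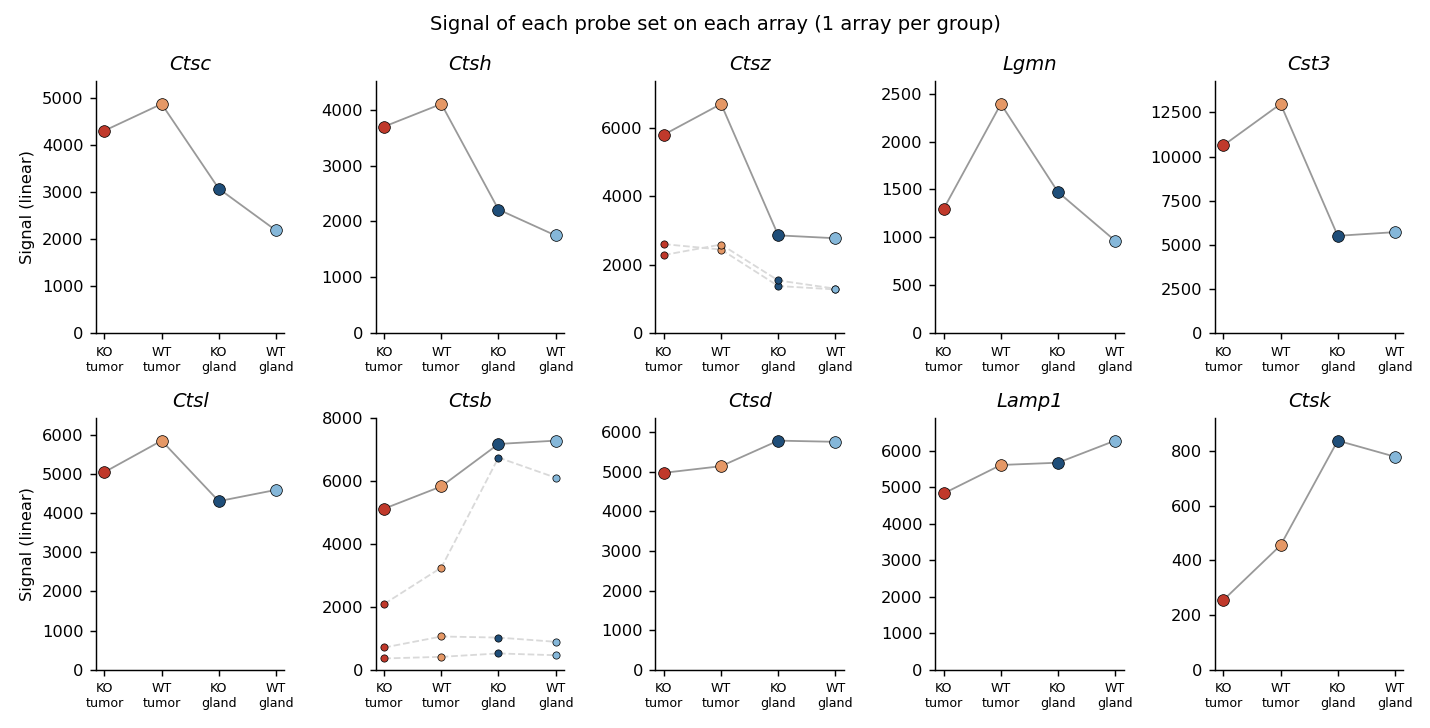
Linear signal (y axes, from 0) of every probe set of the 10 genes on the 4 arrays, 1 array per group, with large points for a gene's brightest probe set and small points with dashed lines for its others. Ctsc, Ctsh, Ctsz and Cst3 are higher in both tumors than in both glands, Ctsk is lower in both tumors, and Lgmn is highest in the WT tumor at 2393.

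The comparison of WT tumor with WT gland shows how the set differed between tumor and gland tissue in mice with Sca-1. Lgmn was 2.44-fold higher in the WT tumor, Ctsz 2.40-fold, Ctsh 2.33-fold, Cst3 2.26-fold and Ctsc 2.22-fold. These 5 of the 10 genes passed 2-fold upward, against 13.1% of all 8287 genes, and none passed it downward, against 16.7%. Their log2 differences, between 1.15 and 1.29, exceeded the probe set spread of 0.64, as did 21.8% of all genes upward. Ctsk was 1.67-fold lower in the WT tumor (log2 difference -0.74), also beyond that spread, as were 25.9% of all genes downward. Ctsl (0.35), Ctsb (-0.32), Ctsd (-0.16) and Lamp1 (-0.16) lay within it. The median over the 10 genes was 0.75, against -0.03 over all genes compared. With cyclic loess normalization 3 of the 10 genes passed 2-fold in place of 5, since Ctsc (0.97) and Cst3 (0.91) then lay just below it. With median centring the median over all genes was 0.09. The dimmer probe sets of Ctsz gave 0.92 and 0.98, below 2-fold but beyond the spread. The second brightest probe set of Ctsb gave -0.91, also beyond the spread, unlike its brightest. The 3' to 5' ratio of the beta-actin control was 1.23 in the WT tumor and 2.35 in the WT gland, and that of Gapdh was 0.768 and 1.72, and their part in these differences was not tested.

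In Sca-1 KO mice the same comparison gave a lower log2 difference than in WT mice for all 10 genes, against 4122 of 8287 genes. The 5 genes that passed 2-fold upward in WT mice differed less in KO mice, while Ctsk, Ctsb, Ctsd and Lamp1 lay further below 0. With median centring Ctsb, Ctsd, Ctsl and Lamp1 were no longer lower than in WT mice. The KO tumor values enter the comparison of KO tumor with KO gland and the one of the tumors, so the 2 are not independent. Ctsz was 2.02-fold higher in the KO tumor than in the KO gland, Cst3 1.93-fold, Ctsh 1.66-fold and Ctsc 1.40-fold. Lgmn, with a log2 difference of -0.18, lay within the spread, and it was 0.15 with each array centred on its median. Ctsk was 3.06-fold lower. At 2-fold, 1 of the 10 genes was higher, against 12.6% of all genes, and 1 was lower, against 18%. Beyond the probe set spread of 0.57 lay Ctsz, Cst3 and Ctsh as higher, against 24% of all genes, and Ctsk as lower, against 29.2%. Other probe sets changed some of these calls: the second brightest of Ctsb gave -1.68, past 2-fold, and those of Ctsz gave 0.91 and 0.56, neither past 2-fold and the last within the spread. The median over the 10 genes was 0.02, against -0.04 over all genes. With median centring, which placed the median of all genes at 0.29, Ctsz (1.34), Cst3 (1.27) and Ctsh (1.06) passed 2-fold upward. The split of all genes was then 1696 higher and 1088 lower, in place of 1047 and 1489.

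**Figure D2:**
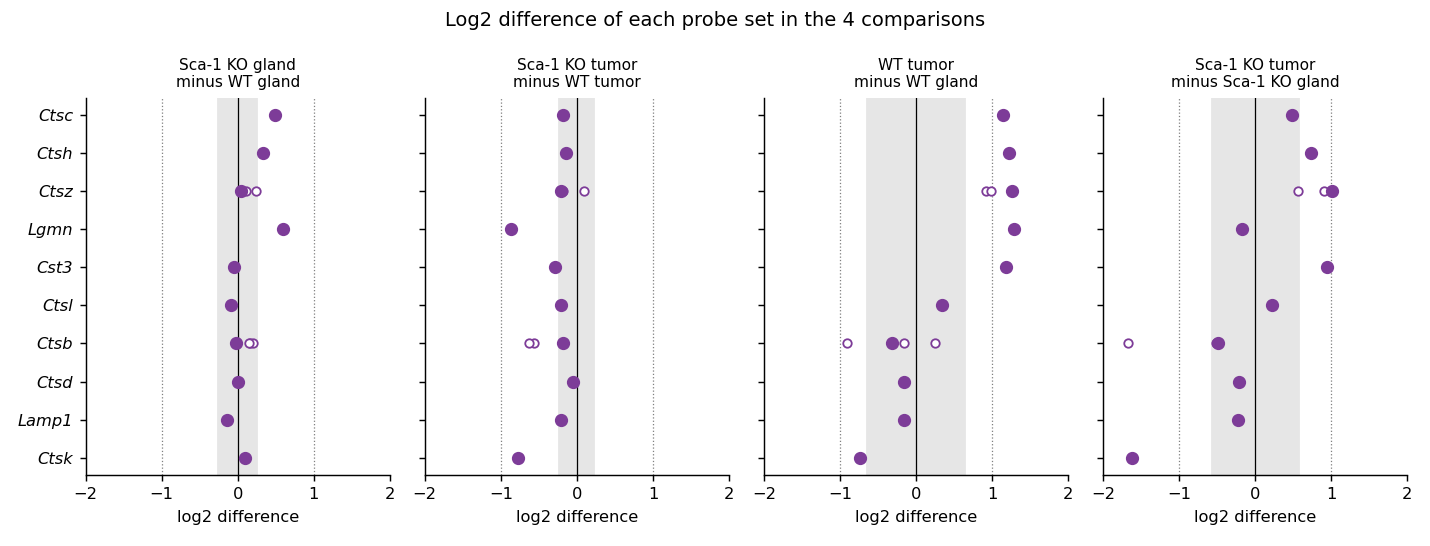
Log2 difference (x axes) of each probe set of the 10 genes in the 4 comparisons, with filled points for the brightest probe set of a gene and open points for its others. Grey bands mark plus and minus the probe set spread (0.26, 0.23, 0.64 and 0.57 from left to right) and dotted lines mark 2-fold. The filled points of 5 genes lie beyond 2-fold in WT tumor minus WT gland, and all 10 lie left of 0 in Sca-1 KO tumor minus WT tumor.

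The comparison of KO with WT tumors asks how the set differed in tumors that arose without Sca-1. All 10 genes were lower in sign in the KO tumor, as were 48.1% of all genes, and most differences were small. Lgmn was 1.83-fold lower (log2 difference -0.87) and Ctsk 1.71-fold lower (-0.77). Both exceeded the probe set spread of 0.23, and both passed 1.5-fold, as did 5.37% of all genes downward. With the median of all values as offset Ctsk was at -0.56, short of 1.5-fold. Cst3, at -0.29, was just beyond the spread, where 20.7% of all genes lay downward and 23.5% upward, and Ctsl (-0.21), Lamp1 (-0.21), Ctsz (-0.21), Ctsb (-0.19), Ctsc (-0.18), Ctsh (-0.15) and Ctsd (-0.05) lay within it. None of the 10 passed 2-fold, where 2.14% of all genes were higher and 1.93% lower. The median over the 10 genes was -0.21, against 0.01 over all genes. Each of the 10 kept its negative sign under all 7 alternatives of offset, scaling and probe set choice. Of these, leaving out shared probe sets could not change any of the 10, and averaging probe sets could change only Ctsb and Ctsz. Other probe sets of Ctsb gave larger differences, -0.63 and -0.56, while 1 probe set of Ctsz gave 0.09.

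The comparison of KO with WT glands gives the genotype difference in mammary gland. Lgmn was 1.51-fold higher in the KO gland (log2 difference 0.60), Ctsc 1.40-fold (0.49) and Ctsh 1.26-fold (0.34). These 3 exceeded the probe set spread of 0.26, as did 22.2% of all genes upward, and none of the 10 did so downward, against 13.9%. The other 7 genes lay within it, between -0.15 for Lamp1 and 0.10 for Ctsk. None of the 10 passed 2-fold, where 1.12% of all genes were higher and 0.253% lower, and Lgmn alone passed 1.5-fold, as did 5.84% of all genes upward. That call changed with the setting: Lgmn was short of 1.5-fold with the median of all values as offset (0.53) and with median centring, and Ctsc passed it with quantile normalization (0.62). The median over the 10 genes was 0.03, against 0.01 over all genes. Median centring placed the median of all genes at -0.21, Lgmn at 0.37, Ctsc at 0.26 and Ctsh at 0.11, the last within the spread. The split of all genes at 2-fold was then 43 higher and 40 lower, in place of 93 and 21, and it was 68 and 34 under quantile normalization and 53 and 31 under cyclic loess. The 3' to 5' control ratio also differed between these arrays, 1.61 in the KO gland and 2.35 in the WT gland, and its part in these differences was not tested.

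Lgmn was the member whose genotype difference turned round between the tissues with both values beyond the probe set spread. Ctsc, Ctsh, Ctsk, Ctsz and Ctsd were also above 0 in the glands and below 0 in the tumors, each within the spread in at least 1 of the tissues. Lgmn was higher in the KO than in the WT gland by 0.60 and lower in the KO than in the WT tumor by 0.87 on the log2 scale, so the difference in the tumors minus that in the glands was -1.47. Of all genes, 4.22% had such a difference of differences of at least 1 in size downward, and Lgmn was the sole gene of the 10 that did. Under the alternatives it lay between -1.51 and -1.26. The split of all genes at 2-fold for this quantity was 188 higher and 350 lower, and 324 and 216 with median centring, 232 and 274 with quantile normalization and 238 and 279 with cyclic loess. Ctsk (-0.87), Ctsc (-0.66) and Ctsh (-0.48) were also beyond the probe set spread of 0.35 for this quantity, as were 21.4% of all genes downward, and the remaining 6 lay between -0.25 and -0.06.

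Macrophage markers, as a list, were also highest in the WT tumor and lowest in the WT gland. Of 18 listed, all had a probe set and 17 reached the floor on some array. Their summed signal was 35098 in the KO tumor, 46749 in the WT tumor, 26926 in the KO gland and 19420 in the WT gland, with none listed at 0. Their median log2 difference was 0.41 in KO against WT gland (17 of 17 positive, against 4327 of 8287 genes), -0.42 in KO against WT tumor (15 of 17 negative, against 3986 of 8287), 1.38 in WT tumor against WT gland and 0.22 in KO tumor against KO gland. With median centring, a setting added after the data were seen, 14 of 17 were positive in the glands with a median of 0.18, and 15 of 17 were negative in the tumors. Cd68, a macrophage protein of the lysosomal membrane, had signals of 694 in the KO tumor, 1119 in the WT tumor, 624 in the KO gland and 371 in the WT gland, an order in which, as for Lgmn, the WT tumor was highest and the WT gland lowest. Mpeg1, a pore-forming protein of macrophages, had 2795 in the KO tumor, 4573 in the WT tumor, 1250 in the KO gland and 814 in the WT gland. Not all markers did so: Cd163, a scavenger receptor, was 5.78-fold lower in WT tumor than in WT gland, and the scavenger receptor Marco was at 0.6 in the KO tumor, 1.4 in the WT tumor, 423 in the KO gland and 64.0 in the WT gland. Other immune lists also differed between the glands. At least 2-fold higher in the KO gland were 7 of 7 B cell markers (median 1.46) and 3 of 4 neutrophil markers (1.65), against 1.12% of all genes. Of 7 T cell markers, all 7 were positive there (0.71). Markers entered these counts through any array on which they reached the floor, for some the KO gland alone, which favours higher values there. The floor was reached in the KO gland by 17 macrophage, 7 B cell, 7 T cell and 4 neutrophil markers. In the WT gland it was reached by 14, 5, 2 and 1. In KO against WT tumor the medians were 0.28 for B cell, 0.15 for T cell and -0.73 for neutrophil markers. Only 1 B cell and 1 T cell marker reached the floor in each tumor, so their medians rest largely on signals below it. The neutrophil median is over 4 of 9 listed genes, 2 positive and 2 negative. Whether macrophage or other immune cell content bears on Lgmn, Ctsc or Ctsh was not tested.

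**Figure D3:**
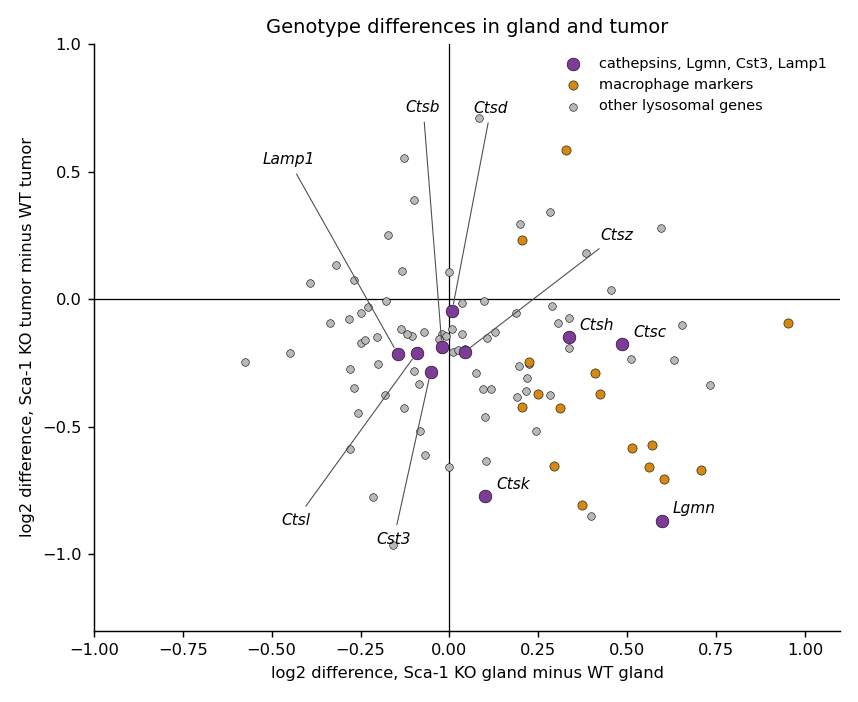
Log2 difference between KO and WT gland (x axis) and between KO and WT tumor (y axis) for the 10 genes (purple, named), macrophage markers (orange) and other lysosomal genes (grey) that reached the floor; 5 genes, Marco among them, lie outside the axes. Lgmn sits at 0.60 and -0.87, at the lower right, where most macrophage markers also lie, and all 10 named genes lie below 0 on the y axis.

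Fibroblast markers are set beside Ctsk, which stromal cells also make. Of 10 listed, all had a probe set. Their summed signal was 16777 in the KO tumor, 25857 in the WT tumor, 42540 in the KO gland and 33670 in the WT gland, with none at 0. Like Ctsk, the list was lowest in the KO tumor and higher in the glands, with medians of -0.93 in WT tumor against WT gland, -1.36 in KO tumor against KO gland, -0.49 in KO against WT tumor and 0.19 in KO against WT gland. The small matrix proteoglycan Lum had the list's largest difference between the tumors, 2.22-fold lower in the KO than in the WT tumor, with signals of 650 and 1478. Of the 10 markers, 9 were lower in the KO tumor and 1 was higher, against 48.1% of all genes lower. In WT tumor against WT gland 8 were lower and 2 higher, against 4292 of 8287 genes lower. Dcn was higher there, with 9372 in the WT tumor and 7167 in the WT gland. Of 5 osteoclast markers with a probe set, 3 reached the floor, among them the acid phosphatase Acp5, at 1260 in the KO tumor, 2175 in the WT tumor, 2163 in the KO gland and 2513 in the WT gland. Ocstamp, an osteoclast membrane protein, went the other way between tissues, with 88.9 in the KO tumor, 230.5 in the WT tumor, 4.7 in the KO gland and 1.7 in the WT gland. Mmp9, a matrix metalloprotease, had 72.3 in the KO tumor, 113.5 in the WT tumor, 204.7 in the KO gland and 159.5 in the WT gland. The likeness to Ctsk was not particular to fibroblast markers. The 8 endothelial markers were also lower in tumor than in gland, with medians of -1.20 in WT and -1.82 in KO mice. In KO against WT tumor all 8 were negative (-0.27), and in KO against WT gland their median was 0.14. Adipocyte markers had medians of -4.31 in WT and -4.43 in KO mice for tumor against gland. Between the tumors theirs was -0.24, with 5 negative and 3 positive. The part of stromal or other cell content in the Ctsk values was not tested. Epithelial markers went the other way from Ctsk, with a summed signal of 57858 in the KO tumor, 50623 in the WT tumor, 22735 in the KO gland and 26803 in the WT gland.

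The cysteine cathepsins were also set against Cst3, as the log2 difference of the protease less that of Cst3 in the same comparison. For Ctsz it was 0.09 in WT tumor against WT gland and 0.07 in KO tumor against KO gland, both close to 0. For Ctsh it was 0.04 in WT and -0.21 in KO mice, and for Ctsc -0.03 and -0.46. By brightest probe sets the gap was widest for Ctsk, at -1.92 in WT and -2.56 in KO mice. For Ctsb it was -1.50 in WT and -1.43 in KO mice, and for Ctsl -0.83 and -0.72. For Lgmn, a cysteine protease outside the papain family, it was 0.11 in WT and -1.12 in KO mice. These are differences of differences between arrays and not ratios of protein. They also depend on the probe set. Before Cst3 was taken off, the second brightest probe set of Ctsb was at -0.91 in WT and -1.68 in KO mice. Both values lay below those of Ctsk, -0.74 and -1.62, so its gap would be the wider. The dimmer probe sets of Ctsz were at 0.92 and 0.98 in WT and 0.91 and 0.56 in KO mice. Those values lay below the 1.18 and 0.95 of Cst3.

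The upstream sequences of the least variable and of the tumor-high genes are shown because a short motif, the E-box core CACGTG, lies at the centre of an element known from promoters of many lysosomal genes. Sequences are from RefSeq (GRCm38.p6) and cover the 250 bases before an annotated gene start. Of the 10 genes, 8 had such a sequence and Lgmn had 2. Capitals mark CACGTG, which reads the same on both strands.
Lamp1: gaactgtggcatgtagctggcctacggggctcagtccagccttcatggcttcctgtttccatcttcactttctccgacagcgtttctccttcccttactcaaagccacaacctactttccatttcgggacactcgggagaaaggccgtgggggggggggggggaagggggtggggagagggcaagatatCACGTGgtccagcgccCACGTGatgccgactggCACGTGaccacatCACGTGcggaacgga
Ctsd: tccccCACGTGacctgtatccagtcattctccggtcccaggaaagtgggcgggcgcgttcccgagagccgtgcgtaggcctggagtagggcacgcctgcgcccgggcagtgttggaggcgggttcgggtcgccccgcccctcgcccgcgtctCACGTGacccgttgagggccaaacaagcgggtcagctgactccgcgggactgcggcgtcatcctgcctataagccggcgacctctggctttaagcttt
Ctsz: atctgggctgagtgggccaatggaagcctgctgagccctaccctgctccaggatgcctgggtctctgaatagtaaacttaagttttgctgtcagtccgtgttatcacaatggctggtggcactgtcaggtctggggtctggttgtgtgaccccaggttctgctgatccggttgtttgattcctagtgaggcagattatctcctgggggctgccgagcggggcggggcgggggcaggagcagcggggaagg
Ctsc: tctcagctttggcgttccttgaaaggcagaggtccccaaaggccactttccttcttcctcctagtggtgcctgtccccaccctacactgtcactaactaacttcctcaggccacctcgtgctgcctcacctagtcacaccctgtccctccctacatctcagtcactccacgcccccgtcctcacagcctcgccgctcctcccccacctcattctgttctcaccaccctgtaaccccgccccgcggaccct

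The Lamp1 window is chr8:13158911-13159160 on the plus strand and held 4 matches, the last of which ended 10 bases before the gene start. The Ctsd window is chr7:142387828-142388077 on the minus strand and held 2 matches, 1 of them within the longer form TCACGTGA. The Ctsz window, chr2:174439040-174439289 on the minus strand, and the Ctsc window, chr7:88277835-88278084 on the plus strand, held none. Among the other windows, Ctsl held 1 match, Lgmn held 1 in 1 of its windows and none in the other, and Cst3 and Ctsk held none. Of all 32851 upstream windows of this length, 6.02% held CACGTG and 0.785% held TCACGTGA. Of the genes with a match, Lamp1, Ctsd and Ctsl were those with log2 spans of 0.38, 0.22 and 0.44 across the arrays, and Lgmn had 1.29. Those without a match, Ctsz, Ctsc, Cst3 and Ctsk, had spans of 1.26, 1.15, 1.23 and 1.62. Ctsh, with a span of 1.22, and Ctsb, with 0.51 or 1.68 by its 2 brightest probe sets, had no window and could fall on either side. Whether the motif bears on these spans was not tested. A match is a description of the letters, and their absence says only that they are not in these windows.

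Most other lysosomal genes differed by less than 1.5-fold between the tumors, and more were lower than higher in the KO tumor. Of 120 listed genes in 6 lists, 94 had a probe set and 81 reached the floor. In KO against WT tumor their median was -0.16, within the probe set spread of 0.23, with 66 of 81 negative, against 48.1% of all genes. Of the 81, 10 were lower by 1.5-fold, against 5.37% of all genes, and 1 was higher by 1.5-fold, against 556 of 8287 genes. Of the 10, 2 were lower by 2-fold, Ctsj and the stefin Stfa3, which both reached the floor in the WT tumor alone. None of the 81 was higher by 2-fold. The 6 lists include cystatins and stefins, which are inhibitors. In KO against WT gland the median was 0.01, with 1 higher (Napsa) and 1 lower (the cystatin Cst10) by 2-fold. That fold was also used for the counts that follow. In WT tumor against WT gland the median was 0.08, with 8 higher and 12 lower, and in KO tumor against KO gland it was -0.18, with 3 higher and 12 lower. The shares of all genes given above for 2-fold apply to these counts too.

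Among 8 other cathepsins above the floor, 2 were at least 2-fold higher in WT tumor than in WT gland, against 13.1% of all genes. Lower by 2-fold was 1, against 16.7%. Ctss, the cathepsin of antigen-presenting cells, was also higher in both tumors, with signals of 6179 in the KO tumor, 7948 in the WT tumor, 3004 in the KO gland and 2582 in the WT gland. It was 3.06-fold higher in the WT tumor than in the WT gland and 2.05-fold higher in the KO tumor than in the KO gland. Ctsf was 1.95-fold lower in the KO than in the WT tumor, with signals of 243 and 501. Ctse, an aspartic protease outside the lysosome proper, went the other way, with 613 in the KO tumor and 409 in the WT tumor, 1.47-fold higher. Ctsj had a signal of 236 in the WT tumor and between 4.0 and 13.8 on the other 3 arrays, and Napsa, another aspartic protease, was 2.75-fold higher in the KO than in the WT gland (387 and 123).

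Of the other cystatins and stefins, 4 reached the floor. Cstb, an inhibitor inside cells, had signals of 6736 in the KO tumor, 7466 in the WT tumor, 4553 in the KO gland and 5251 in the WT gland, an order of tumors above glands like that of Cst3. Cst6, a cystatin of skin and mammary epithelium, had 440 in the KO tumor, 528 in the WT tumor, 22.3 in the KO gland and 46.6 in the WT gland. Stfa3, a stefin, had 607 in the WT tumor and at most 12.5 on the other arrays, and Cst10 had 1670 in the WT gland and at most 11.2 on the others. Stfa3 and Ctsj were bright in the WT tumor alone, where the summed signal of 11 keratinising epithelium markers was 1928 in the KO tumor, 8336 in the WT tumor, 1005 in the KO gland and 746 in the WT gland. The part of that epithelium in either gene was not tested.

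Of 32 other lysosomal hydrolases above the floor, none passed 2-fold between genotypes in either tissue. Few of all genes did, 1.12% higher and 0.253% lower in the gland and 2.14% and 1.93% in the tumor. In KO against WT tumor 26 of the 32 were negative, against 48.1% of all genes, and the median there was -0.16. The largest differences in that comparison were for Acp5, 1.71-fold lower, the glycogen-degrading glucosidase Gaa, 1.58-fold lower, and the nuclease Dnase2a, 1.55-fold lower. In WT tumor against WT gland 2 of the 32 were higher by 2-fold, the thiol reductase Ifi30 at 3.82-fold and Ids, a sulfatase, at 3.55-fold. Ids reached the floor in the WT tumor alone, at 208, and its signal in the WT gland was 38.9. Lower by 2-fold were 4, among them the carboxypeptidase Scpep1 at 2.68-fold. Neither count exceeded the share of all genes, 13.1% higher and 16.7% lower. Ifi30, which works on antigens in the same compartment, had 2770 in the KO tumor, 2972 in the WT tumor, 1209 in the KO gland and 758 in the WT gland. Of 13 other membrane proteins, 12 were negative in KO against WT tumor, against 48.1% of all genes, with a median of -0.20. The metal transporter Slc11a1 was 1.80-fold lower there, while the cystine transporter Ctns was 1.64-fold higher.

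Proton pump subunits, which acidify the lysosome, differed little between genotypes, with 16 of 16 within 1.5-fold in both tissues and medians of -0.18 in the gland and -0.15 in the tumor. Most genes lay within it too. Of all 8287 genes, 484 were higher and 107 lower by 1.5-fold in the gland, and 556 and 445 in the tumor. Atp6v0a1 was 6.41-fold lower in WT tumor and 6.99-fold lower in KO tumor than in the gland of the same genotype, with signals of 45.6 in the KO tumor, 53.9 in the WT tumor, 482 in the KO gland and 493 in the WT gland. Of 8 sorting and transcription genes above the floor, 3 were lower and none higher by 2-fold in WT tumor against WT gland, and the same counts held in KO mice. The shares of all genes were 16.7% lower and 13.1% higher in WT and 18% and 12.6% in KO mice. The sorting receptor Sort1 was 3.26-fold lower in WT and 2.83-fold lower in KO tumor, and Tfeb, the transcription factor known as a regulator of lysosomal genes, was 2.29-fold lower in WT and 2.51-fold lower in KO tumor. Its signals were 122 in the KO tumor and 138 in the WT tumor, both below the floor, and 348 in the KO gland and 351 in the WT gland.

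**Figure D4:**
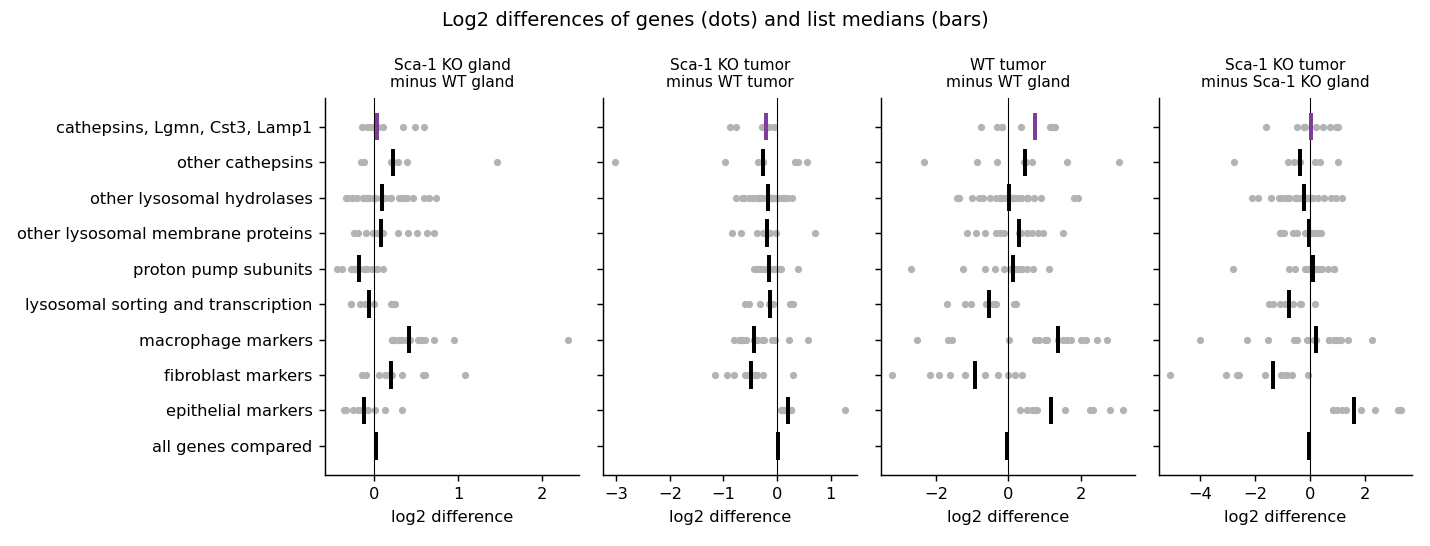
Log2 differences in the 4 comparisons for the 10 genes, 5 lists of other lysosomal genes and 3 lists of cell type markers (grey dots, genes above the floor; bars, medians), with the median of all 8287 genes in the bottom row. In Sca-1 KO tumor minus WT tumor the medians of the 10 genes (-0.21), the hydrolases (-0.16) and the macrophage markers (-0.42) lie left of 0, and that of epithelial markers (0.21) lies right of it.

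Genes with the most similar course over the 4 arrays were found by the Euclidean distance between log2 values centred on each gene's mean, for the 6 genes with a span of at least 1. Nearest to Lgmn were Sla at a distance of 0.13, Cenpb at 0.14 and Msr1 at 0.17, and Msr1 is also on the list of macrophage markers. Nearest to Ctsk were Per1 at 0.07, Hoxd8 at 0.08 and Sox7 at 0.10. Ctsz had the closest neighbours, Ift22 at 0.02, Atp5g1 at 0.03 and Chmp6 at 0.04. Nearest to Ctsc were Tank at 0.06, Trappc5 at 0.07 and Ap5s1 at 0.08, and to Ctsh Nubp1 at 0.06, Plcg2 at 0.07 and Gspt1 at 0.08. Nearest to Cst3 were Igfbp5 at 0.06, Commd9 at 0.07 and Mrps34 at 0.08. These neighbours were picked from 8287 genes over 4 arrays and are a description of those arrays.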

How the data were processed

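Biotin-labelled cRNA of the 4 pools was hybridised to Affymetrix mouse arrays, per the labels' protocols. The authors deposited linear intensity values for 22690 probe sets. The software behind them is not stated in the labels or file headers. Trimmed by 2% at each end, the array means were all 500.1 or 500.2, which shows a common scaling.

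Probe sets were named through GEO's platform annotation. Of them, 20393 had 1 symbol, 691 had several and were not used, and 1606 are unnamed here, and 20364 symbols were matched to current ones by gene ID. The log2 offset of 27.3 was set at the 25th percentile of the signals. With 1 array per group no test was made, and precision is limited by the number of arrays. The procedure was tested on simulated data. The 10 genes and all lists were chosen with earlier results of these data known. Named genes were the 10 members, genes among the up to 3 largest differences per list and comparison, and the 3 nearest genes of each member with a span of at least 1. Python 3.11.15, pandas 2.3.3, R 4.3.3 and limma 3.58.1 were used.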

Additional observations from a re-analysis of the deposited data

Results flagged for a closer look

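Lgmn differed between genotypes in opposite directions in tumor and gland, with both differences larger than the spread between probe sets of a gene. The genotype difference in tumor minus that in gland was -1.47 on the log2 scale. Each group was 1 array, so this difference was not tested.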

How the results depend on the processing

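The alternatives were other offsets (1, or the median of all values), median centring, quantile normalization, cyclic loess, the mean of all probe sets of a gene, and probe sets without those shared between transcripts. Over the single genes they gave 350 values, of which all 350 moved by less than the probe set spread and 19 changed sign, each of these being small in the main setting. Some of the 350 could not move. Leaving out shared probe sets kept the same probe set for each of the 10 genes. Averaging probe sets could not change the 8 genes with 1 probe set. The number of the 10 genes past 2-fold in WT tumor against WT gland was 5 and fell to 3 with cyclic loess. In KO tumor against KO gland it was 2, became 4 with median centring, and was 1 with the median of all values as offset, with quantile normalization, with cyclic loess and with the mean of all probe sets. At 1.5-fold in place of 2-fold the number was 4 in that comparison, 1 in KO against WT gland and 2 in KO against WT tumor. Of all genes, 114 passed 2-fold in KO against WT gland, but 227 with an offset of 1, 37 with the median of all values as offset, 183 with no floor and 75 with the floor on the mean. In KO against WT tumor 337 passed, but 507 with an offset of 1 and 138 with the median of all values as offset. That offset also gave 1504 in place of 2469 for WT tumor against WT gland, 1588 in place of 2536 for KO tumor against KO gland, and 223 in place of 538 for the difference of differences. The cause of these changes was not tested. No paired analysis was possible because each group was a single array. No array could be left out for the same reason, and the dim end of the scale, where 1 signal is near background, limits the fold of any gene there, though none of the 10 genes.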
